A study of Mus musculus with 32 samples.

Results

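The 9 genes described here encode receptors and bridging molecules with which phagocytes recognise and take up apoptotic cells. They are the receptor kinases Mertk, Axl and Tyro3, the soluble bridges Gas6, Pros1 and Mfge8, and the surface receptors Stab1, Timd4 and Cd36. They were chosen by name, through probe sets that the array annotation assigns to one of them alone, and 9 of 9 were found among 19938 genes, each with 1 such probe set. The study profiled 4 macrophage lines of the mouse on 32 Affymetrix arrays, with 2 biological replicates (I and II) in each of 16 groups. The lines are Y721F and 3AB, whose CSF-1 receptor lacks Tyr-721, and WT and 3ABY721, whose receptor has it. The names of all 4 lines begin with M-/- in the labels, which do not say how the lines were made, and all were kept in medium with 120 ng/mL human CSF-1 unless starved. In the time course, Y721F and WT cells were starved of CSF-1 overnight and then exposed to it for 0, 20, 60 or 180 min. In the steady-state experiment, cells of each line were either grown continuously in CSF-1 or starved. Each receptor comes with a line of its own, so receptor and line cannot be told apart in any comparison between lines.

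Dying cells expose phosphatidylserine on their outer surface, and macrophages bind this lipid either directly, through receptors such as stabilin-1 (Stab1) and TIM-4 (Timd4), or through soluble bridges. Gas6 and protein S (Pros1) tie the lipid to the TAM receptor kinases Tyro3, Axl and Mertk, MFG-E8 (Mfge8) ties it to integrins, and CD36 is a scavenger receptor for oxidised lipids, some of which dying cells carry. Mertk is the TAM receptor best known for engulfment by resting and wound-healing macrophages, and it also restrains their inflammatory output. CSF-1 is the growth factor that most macrophages need to survive and divide.

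Signals are log2 values, so a difference of 1 is a 2-fold change. Array medians ran between 5.97 and 6.22, and the Pearson r of a group's 2 arrays was 0.985 to 0.993, both taken across all probe sets. Of 9 macrophage markers 8 were measured, with a mean between 10.80 and 12.39 on every array, and Csf1r itself read 12.72 to 13.41. The array means of the other marker lists lay lower: 5.47 to 5.98 for dendritic cells, 4.88 to 5.23 for granulocytes and mast cells, 5.52 to 6.33 for fibroblasts, 5.39 to 6.50 for endothelium and 4.99 to 5.62 for lymphocytes. The osteoclast list had array means of 7.34 to 8.28, with Ctsk, a lysosomal protease that macrophages also make, at 12.08 to 13.36. These are bulk RNA samples, in which fewer cells of a type and less RNA per cell cannot be told apart. A gene is called where the adjusted p of limma (Benjamini-Hochberg over 19938 genes) is under 0.05 and the fold above 1.5, and a gene is said to rise or fall, or to be higher or lower, only where it is called. The share of all genes called in the same comparison is given beside each count of members.

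Sequences upstream of Mertk, Axl, Pros1 and Stab1 are shown because these 4 genes were lower in Y721F than in WT. They come from RefSeq (GRCm38.p6), run 5′ to 3′ on the gene's strand, and capitals mark a motif. Each lies within the 250 bases before the listed start and outside the annotated gene, so the 59 bases of Axl and the 240 bases of Stab1 stop short of that start. They cover chr2:128698665-128698914 (plus strand) for Mertk, chr7:25788925-25788983 (minus strand) for Axl, chr16:62854057-62854306 (plus strand) for Pros1 and chr14:31168652-31168891 (minus strand) for Stab1.
Mertk: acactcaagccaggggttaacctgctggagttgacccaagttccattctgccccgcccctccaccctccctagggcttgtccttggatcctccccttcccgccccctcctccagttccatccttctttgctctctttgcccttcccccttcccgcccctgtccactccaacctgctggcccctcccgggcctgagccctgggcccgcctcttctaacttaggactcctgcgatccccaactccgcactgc
Axl: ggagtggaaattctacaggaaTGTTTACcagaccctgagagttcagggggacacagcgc
Pros1: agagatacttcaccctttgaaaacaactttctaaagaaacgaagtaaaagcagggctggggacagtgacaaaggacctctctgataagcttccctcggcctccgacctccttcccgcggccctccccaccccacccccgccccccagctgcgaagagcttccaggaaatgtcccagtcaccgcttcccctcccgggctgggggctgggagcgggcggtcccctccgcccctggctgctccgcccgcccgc
Stab1: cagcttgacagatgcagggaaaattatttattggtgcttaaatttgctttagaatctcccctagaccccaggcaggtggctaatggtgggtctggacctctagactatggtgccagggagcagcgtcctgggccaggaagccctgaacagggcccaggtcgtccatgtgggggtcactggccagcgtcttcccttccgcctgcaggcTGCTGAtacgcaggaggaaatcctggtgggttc
Windows of 250 bases before the start were searched on both strands in all 9 genes. Those of Tyro3 and Cd36 lay wholly inside the annotated gene, so the Cd36 motifs below do too. The AP-1 motif TGANTCA, the E-box CACGTG and the EGR motif GCGTGGGCG, letters bound by factors that growth factor signalling often induces, were in 0 of 9, against 6.75%, 6.02% and 0.536% of 32851 mouse promoters of the same length. The FOXO motif GTAAACA was in 1 of 9 (Axl, in capitals as its reverse complement) and in 3.17% of all promoters. The nuclear receptor core motif AGGTCA was in 2 of 9 (Timd4 and Cd36) and in 14.0% of all, and the Maf core motif TGCTGA was in 3 of 9 (Stab1, in capitals, Timd4 and Cd36) and in 16.1% of all. The Mertk and Pros1 sequences above held none of these letters.

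Mertk was the 1 member that changed after CSF-1 was returned to starved cells, and it fell in both lines by 180 min. In WT, 0 of 9 members were called at 20 min (0.16% of all genes, with 0 of 9 at an unadjusted limma p under 0.05) and 0 of 9 at 60 min (0.632%, with 1 of 9, Mertk, under 0.05 unadjusted). Over all 19938 genes, 436 were under 0.05 unadjusted at 20 min and 2361 at 60 min. At 180 min 1 of 9 was called in WT (2.16% of all genes, 0.782% as lower). In Y721F, 0 of 9 were called at 20 min (0.0802%) and at 60 min (0.176%), each with 0 of 9 under 0.05 unadjusted and 0 of 9 with the replicate block described below, and 1 of 9 at 180 min (0.261%, 0.0903% as lower). In that line 1357 of 19938 genes were under 0.05 unadjusted at 20 min and 1064 at 60 min.

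Mertk in Y721F read 8.82 and 9.03 at 0 min, 8.63 and 8.82 at 20 min, 8.80 and 8.72 at 60 min, and 6.82 and 7.66 at 180 min. In WT it read 9.90 and 10.07 at 0 min, 9.33 and 9.62 at 20 min, 8.77 and 9.44 at 60 min, and 8.20 and 7.93 at 180 min. In both lines the 2 arrays at 180 min lay below all 6 arrays of the earlier times, and the WT means stepped down at each time. At 180 min against 0 min the difference was -1.68 (SE 0.26) in Y721F, 3.21-fold lower (limma adjusted p = 0.0364), and -1.92 (SE 0.26) in WT, 3.78-fold lower (adjusted p = 0.0087). The Y721F call was lost without any 1 of its 4 arrays (adjusted p 0.0536 to 0.416, differences -2.10 to -1.26), and the WT call without 0 min replicate I (-2.01, adjusted p = 0.0991) or 180 min replicate II (-1.78, adjusted p = 0.113).

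The difference between the Mertk responses of the 2 lines did not pass the test at any time. At 60 min the Mertk difference from 0 min was -0.16 in Y721F (adjusted p = 0.999) and -0.88 in WT (adjusted p = 0.202, SE 0.26 in both). With the replicate number as a block within each line, the pairing that the time course bears out, the WT change at 60 min passed (adjusted p = 0.0362, SE 0.21), while Y721F stayed at 0.868. It also passed without WT 60 min replicate II (-1.22, adjusted p = 0.0422). The block raised the share of genes called in WT at 60 min to 3.74%. The difference of the 60 min responses, Y721F minus WT, was 0.72 (SE 0.37, 95% interval -0.10 to 1.53, adjusted p = 0.999), and at 180 min it was 0.23 (-0.58 to 1.05, adjusted p = 1). Between 60 and 180 min, a comparison added after the values were seen, Mertk differed by -1.52 in Y721F (adjusted p = 0.149, and 0.0142 with the block) and by -1.04 in WT (adjusted p = 0.52, and 0.0785 with the block). Of 9 members, 0 were called in either line over that interval without the block, against 0.0301% of all genes in Y721F and 0.0251% in WT. Under 0.05 unadjusted was 1 of 9 (Mertk) in each line, against 1364 of 19938 genes in Y721F and 1095 in WT. In the differences of responses 0 of 9 members and 0% of all genes were called at each time. Under 0.05 unadjusted were 0 of 9 members, against 810, 640 and 277 of 19938 genes at 20, 60 and 180 min.

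**Figure D1:**
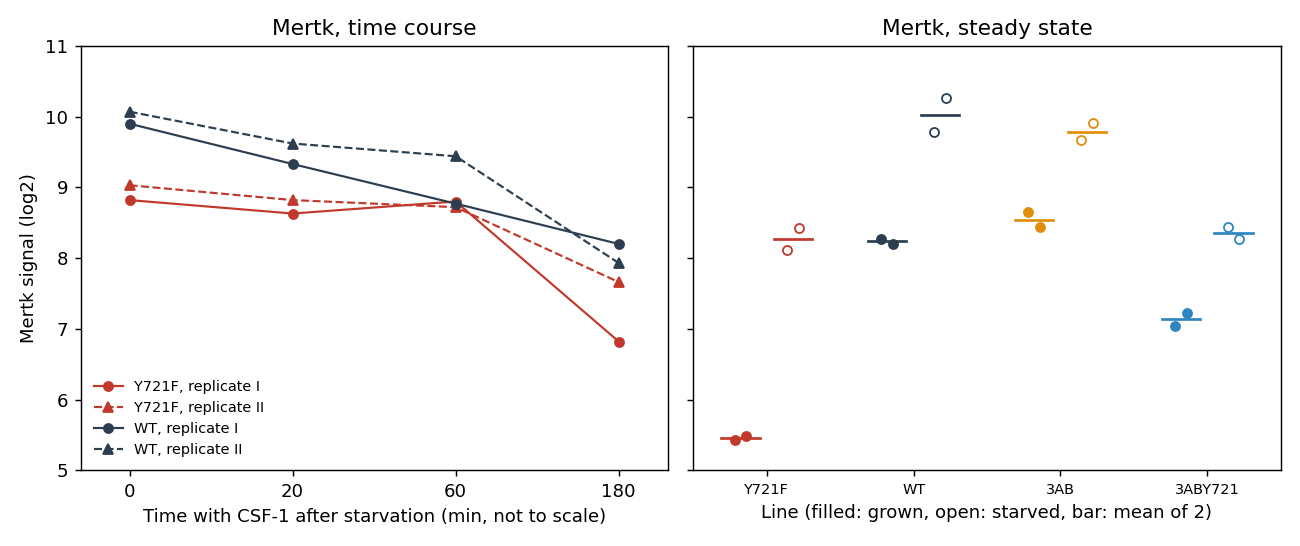
Mertk signal (log2) in all 32 arrays. On the left, lines join the arrays of replicate I or II of Y721F (red) and WT (dark blue) at 0, 20, 60 and 180 min with CSF-1; on the right, each dot is an array of a line grown in CSF-1 (filled) or starved (open) and each bar is the mean of 2 arrays. The lowest arrays are Y721F grown in CSF-1, at 5.43 and 5.48, and in every line the grown arrays lie below the starved ones.

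Mertk was lower in cells grown in CSF-1 than in starved cells in all 4 lines, and it was the 1 member called in each of these comparisons. The share of genes called was 4.94% in Y721F (1.46% as lower), 5.32% in WT (3.01%), 0.687% in 3AB (0.256%) and 1.41% in 3ABY721 (0.672%). In Y721F, Mertk read 5.43 and 5.48 grown, against 8.12 and 8.42 starved. These grown values lay below the lowest array median of 5.97, so the folds that rest on them are less certain. In WT, Mertk read 8.27 and 8.20 grown, against 9.78 and 10.26 starved. In 3AB it read 8.65 and 8.44 grown, against 9.67 and 9.91 starved, and in 3ABY721 7.04 and 7.23 grown, against 8.44 and 8.27 starved. Grown and starved arrays overlapped in none of the 4 lines, but the share of all genes without overlap was not counted.

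Growth in CSF-1 went with a Mertk difference of -2.81 in Y721F (7.04-fold lower, limma adjusted p = 6.25e-07), -1.78 in WT (3.45-fold, adjusted p = 5.36e-05), -1.25 in 3AB (2.37-fold, adjusted p = 0.003) and -1.22 in 3ABY721 (2.33-fold, adjusted p = 0.00225), each with an SE of 0.17. The 3AB call was lost without starved replicate II (-1.12, adjusted p = 0.0631) or grown replicate II (-1.14, adjusted p = 0.08). The effect was 1.03 further below 0 in Y721F than in WT (difference -1.03, SE 0.24, 95% interval -1.54 to -0.52), but this did not pass over all genes (adjusted p = 0.233). Between 3AB and 3ABY721 the effects differed by -0.02 (interval -0.54 to 0.49, adjusted p = 1). In these differences of growth effects 0 of 9 members were called, against 0.0903% and 0.00502% of all genes. At an unadjusted limma p under 0.05 were 3 of 9 members (Mertk, Mfge8 and Stab1) in the first pair and 1 of 9 (Cd36) in the second. Over all 19938 genes, 2527 were under 0.05 unadjusted in the first pair and 440 in the second. With either replicate block 0 of 9 were called (0% to 0.0802% of all genes).

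Between lines, the comparison of Y721F with WT called 4 of 9 members, all lower: Mertk, Axl, Pros1 and Stab1, and they were called both grown (7.88% of all genes, 4.94% as lower) and starved (11.1%, 7.66% as lower). The comparison of 3AB with 3ABY721, the other pair that differs in Tyr-721, called 2 of 9, Mertk and Stab1, both higher, grown (1.18% of all genes, 0.542% as higher) and starved (0.617%, 0.246%). The median difference of the 9 members was -0.23 grown and -0.27 starved for Y721F minus WT, where that of all genes was 0.05 and -0.01, and -0.19 and 0.04 for 3AB minus 3ABY721, where that of all genes was -0.01 and 0. At 0 min of the time course, 0 of 9 were called in Y721F against WT (0.727% of all genes). Under 0.05 unadjusted in limma were 3 of 9 (Mertk, Pros1 and Stab1) and 1921 of 19938 genes. The within-line block called 3 of 9 (3.99% of all genes) and a block over both lines 1 of 9 (2.01%). The within-line block leaves the gap between replicates I and II out of its error. Some macrophage markers moved with the Y721F comparison: 3 of 8 were lower in Y721F than in WT grown (Fcgr1 -5.16, Lyz2 -1.53, Itgam -0.91) and 3 of 8 starved. The list's mean was 10.80 and 10.82 in Y721F grown, against 11.94 and 11.99 in WT grown. Starved, that mean was 11.23 and 11.40 in Y721F, against 12.14 and 12.37 in WT. Fcgr1 weighs on these means, and the list's median difference was -0.60 grown and -0.345 starved. Of 7 fibroblast markers 1, Pdgfra, was higher in Y721F than in WT (2.04 grown), and of 4 endothelial markers 1 was lower; the part of these lists in the members' differences was not tested. In 3AB the macrophage list read 11.86 and 11.88 grown, against 11.85 and 11.80 in 3ABY721, and 1 of its 8 markers was higher in 3AB grown, Fcgr1 at 0.90 (adjusted p = 0.0493); its part was not tested.

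**Figure D2:**
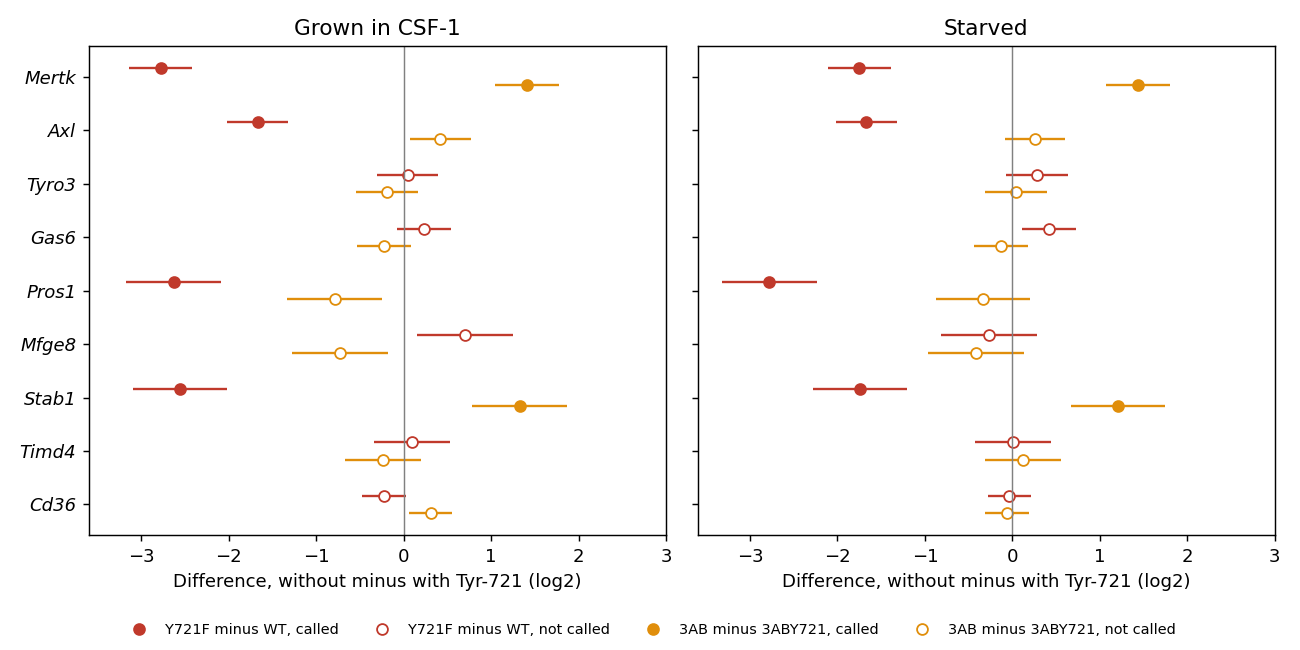
Differences (log2) between a line without Tyr-721 and one with it, grown in CSF-1 (left) and starved (right): Y721F minus WT in red and 3AB minus 3ABY721 in orange, from 2 arrays per group, with bars for 95% intervals and filled dots for called differences. Mertk and Stab1 are called in both pairs and lie on opposite sides of 0, while Axl and Pros1 are called for Y721F minus WT alone.

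Mertk had the highest starved levels in WT and 3AB, lower ones in Y721F and 3ABY721, and its lowest level in Y721F grown in CSF-1. Y721F minus WT was -2.78 grown (6.87-fold lower, limma adjusted p = 1.48e-07) and -1.75 starved (3.36-fold, adjusted p = 1.1e-05), with an SE of 0.17. 3AB minus 3ABY721 was 1.41 grown (2.66-fold higher, adjusted p = 0.000479) and 1.44 starved (2.70-fold, adjusted p = 0.000633). The line without Tyr-721 was thus the lower one in the first pair and the higher one in the second. No array of one line overlapped with its partner's in either state, but the share of all genes without overlap was not counted.

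Lines of like Tyr-721 differed in Mertk too. 3AB minus Y721F was 3.09 grown (8.52-fold higher, limma adjusted p = 2.48e-08) and 1.52 starved (adjusted p = 3.95e-05). 3ABY721 minus WT was -1.67 starved (adjusted p = 0.00101) and -1.10 grown (adjusted p = 0.0135), and the grown call was lost without WT replicate I (-1.06, adjusted p = 0.157), 3ABY721 replicate I (-1.01, adjusted p = 0.267) or 3ABY721 replicate II (-1.20, adjusted p = 0.0751). In comparisons added after the values were seen, 3AB minus WT was 0.31 grown (adjusted p = 0.471) and -0.23 starved (adjusted p = 0.558), and Y721F minus 3ABY721 was -0.08 starved (adjusted p = 0.852) but -1.68 grown (adjusted p = 2.32e-05). In this last pair 4 of 9 members were called lower grown (Mertk, Axl, Pros1 and Stab1, with 3.75% of all genes called, 2.42% as lower) and 2 of 9 starved (Axl and Pros1, with 4.05%, 3.01% as lower), and the Stab1 call was lost without any 1 of its 4 arrays (adjusted p 0.0841 to 0.245). At 0 min of the time course Mertk differed by -1.06 between Y721F and WT (95% interval -1.63 to -0.49, adjusted p = 0.113). With all 32 arrays in 1 fit this difference passed (adjusted p = 0.0141), and with the within-line block too (0.0108), in an error that leaves out the gap between replicates I and II.

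Axl, the TAM receptor that inflammatory signals usually induce, was lower in steady-state Y721F cells than in every other line and stayed near one level in the other 3. It read 8.90 and 8.77 in Y721F grown, against 10.41 and 10.60 in WT grown. Starved, it read 9.58 and 9.16 in Y721F, against 11.17 and 10.91 in WT. In 3AB it read 10.89 and 10.85 grown and 11.09 and 11.06 starved, against 10.34 and 10.56 grown and 10.68 and 10.95 starved in 3ABY721. All 4 steady-state Y721F arrays lay below the other 12.

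Y721F minus WT was -1.67 for Axl both grown (SE 0.16, 3.18-fold lower, limma adjusted p = 1.23e-05) and starved (adjusted p = 1.1e-05). 3AB minus Y721F was 2.04 grown (4.10-fold higher, adjusted p = 1.03e-06) and 1.71 starved (adjusted p = 8.63e-06). 3AB minus 3ABY721 was 0.42 grown (95% interval 0.07 to 0.77, adjusted p = 0.321) and 0.26 starved (-0.09 to 0.61, adjusted p = 0.748), and 3ABY721 minus WT was -0.06 grown and -0.23 starved (adjusted p = 0.931 and 0.507). Grown arrays lay below starved ones in each line, by -0.54 in Y721F (adjusted p = 0.0668), -0.54 in WT (adjusted p = 0.0663), -0.21 in 3AB and -0.37 in 3ABY721 (adjusted p = 0.65 and 0.376), none of them called. With quantile normalization the Y721F and WT differences passed (-0.66 and -0.60, adjusted p = 0.0322 and 0.0456).

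The low Axl level of Y721F was not seen in the time course. At 0 min Axl read 10.48 and 11.10 in Y721F, against 11.04 and 10.56 in WT, so the lines overlapped and differed by -0.01 (95% interval -0.83 to 0.81, adjusted p = 0.993). Both experiments include starved cells, and the starved Y721F arrays of the steady-state experiment read 9.58 and 9.16. The Y721F-minus-WT difference was -1.66 further down in the starved steady-state cells than at 0 min (SE 0.42, adjusted p = 0.0485 in a fit of all 32 arrays, 1.64% of all genes called, 0.813% as lower), a comparison added after the values were seen. This call was lost in 7 of the 8 fits that leave out 1 array each (adjusted p 0.063 to 0.173), all but that without Y721F starved replicate I, and with quantile normalization (-1.49, adjusted p = 0.0918). With CSF-1, Axl moved by -0.13, -0.12 and -0.14 at 20, 60 and 180 min in Y721F and by -0.26, -0.49 and -0.44 in WT, against an SE of 0.37, and none was called.

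Tyro3, the third TAM receptor and in mice mainly a gene of the nervous system, was not called in any of 24 comparisons. Its signal lay between 5.93 and 6.69 in the 32 arrays. The differences ran between -0.33 and 0.28, with a lowest limma adjusted p of 0.245. The highest array was 3AB starved replicate I at 6.69, whose partner read 6.07.

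**Figure D3:**
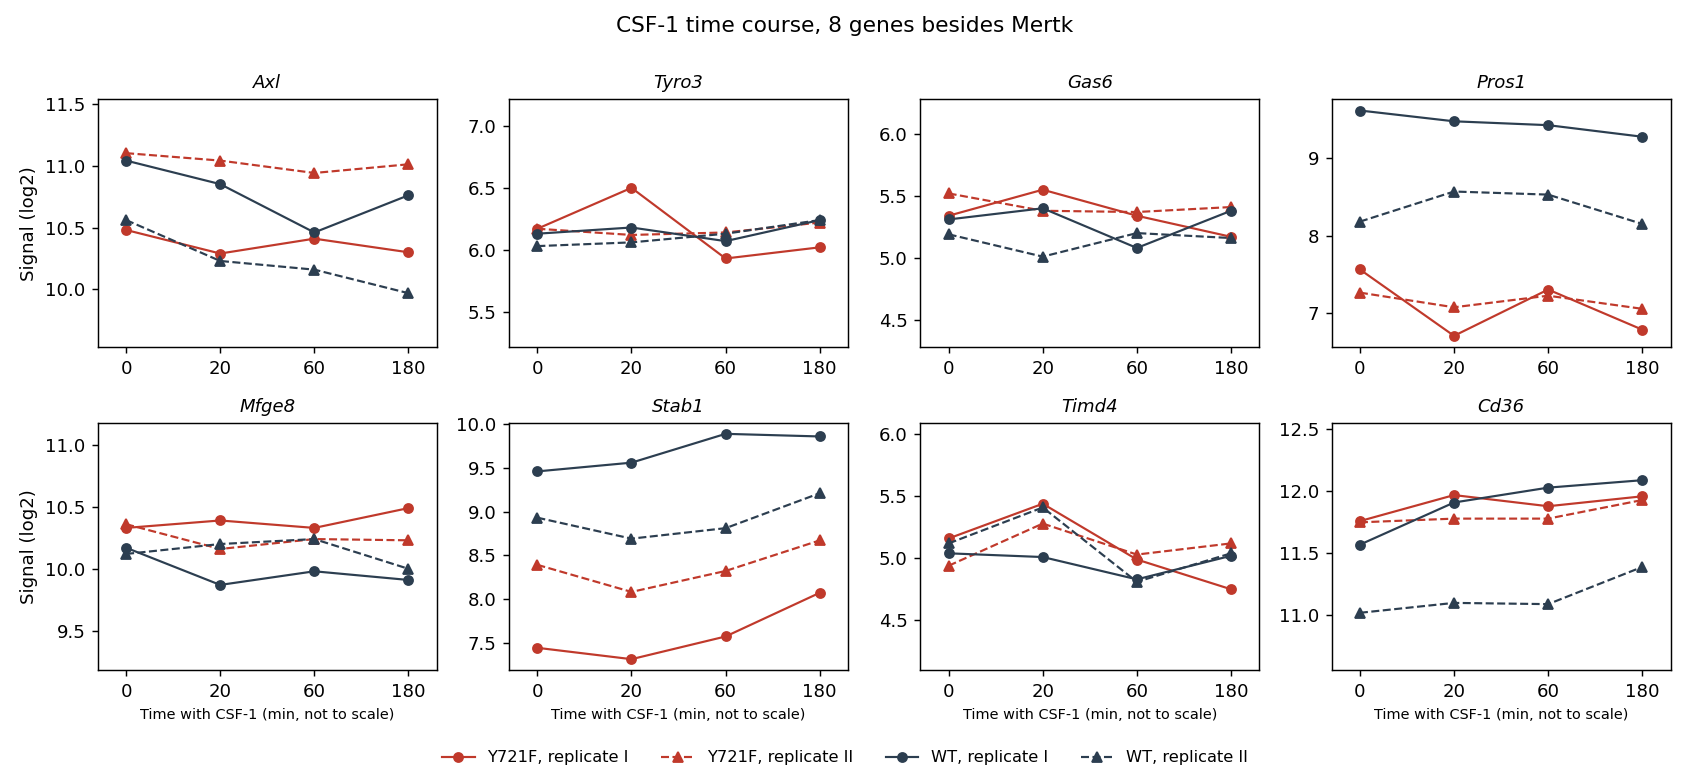
Signals (log2) of the 8 genes other than Mertk in Y721F (red) and WT (dark blue) at 0, 20, 60 and 180 min with CSF-1; lines join the arrays of replicate I (solid) or II (dashed), and each panel has its own range. None of these 8 genes was called at any time, and in WT the replicate I arrays of Pros1 lie above those of replicate II at every time.

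Of the TAM ligands, Pros1 was called between some lines and Gas6 in none of the 24 comparisons. Gas6 binds all 3 TAM receptors. Its signal ran only between 4.92 and 5.59, below the lowest array median of 5.97, a low signal at which a difference may be missed. Its differences ran between -0.37 and 0.42 in the 24 comparisons, with a lowest limma adjusted p of 0.0594. That lowest value was for Y721F minus WT starved, where Gas6 read 5.25 and 5.59 in Y721F, against 5.08 and 4.92 in WT. Without Y721F starved replicate I that difference was 0.59 and passed (adjusted p = 0.0356).

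Pros1, protein S, which binds Tyro3 and Mertk, was lowest in Y721F and highest in WT. Grown, it read 6.05 and 5.74 in Y721F, against 9.02 and 8.03 in WT. Starved, it read 6.48 and 6.50 in Y721F, against 9.42 and 9.12 in WT. In 3AB it read 7.33 and 6.81 grown and 7.76 and 7.54 starved, against 7.82 and 7.90 grown and 8.03 and 7.94 starved in 3ABY721. The means of 3AB and 3ABY721 lay between those of Y721F and WT in both states.

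Y721F minus WT was -2.63 for Pros1 grown (SE 0.25, 6.19-fold lower, limma adjusted p = 1.14e-05) and -2.78 starved (6.87-fold, adjusted p = 6.4e-06). The Y721F grown values, 6.05 and 5.74, lay near the lowest array median of 5.97, so the folds that rest on them are less certain. 3AB minus 3ABY721 was -0.79 grown (95% interval -1.33 to -0.25, adjusted p = 0.207) and -0.34 starved (-0.88 to 0.21, adjusted p = 0.81). 3AB was higher than Y721F by 1.18 grown (adjusted p = 0.00742) and 1.16 starved (adjusted p = 0.00868), and 3ABY721 minus WT was -1.28 starved (adjusted p = 0.0251), a call, and -0.67 grown (adjusted p = 0.311). The last 3 calls were lost with all 32 arrays in 1 fit (adjusted p 0.0733, 0.0758 and 0.0997). They were also lost without Y721F grown replicate II (1.02) or 3AB grown replicate I (0.92), without Y721F starved replicate II (1.17) or 3AB starved replicate I (1.05), and, for 3ABY721 against WT starved, without any 1 of the 4 arrays (adjusted p 0.0516 to 0.19). In comparisons added after the values were seen, 3AB minus WT was -1.46 grown (adjusted p = 0.00726) and -1.62 starved (adjusted p = 0.0032), Pros1 being the 1 of 9 members called in each (2.03% of all genes grown, 1.17% as lower, and 2.42% starved, 1.94% as lower); the grown call was lost without 3AB grown replicate II (-1.20, adjusted p = 0.122) and with all 32 arrays in 1 fit (0.0828), and the starved one without 3AB starved replicate II (-1.51, adjusted p = 0.0507). Without WT grown replicate II, 3ABY721 minus WT grown became -1.16 and passed (adjusted p = 0.0101).

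In the time course, Pros1 read 7.56 and 7.26 in Y721F at 0 min, against 9.62 and 8.18 in WT. The Y721F arrays lay below the WT arrays at every time, but WT replicate I (9.28 to 9.62) stood above WT replicate II (8.15 to 8.57) throughout. The difference at 0 min was -1.49 (SE 0.49, adjusted p = 0.286). The within-line block, whose error leaves out that gap, gave an adjusted p of 0.000154. CSF-1 moved Pros1 by at most -0.53 (Y721F at 20 min), and no time was called. Grown cells read below starved ones in all 4 lines, by -0.59 in Y721F, -0.74 in WT, -0.58 in 3AB and -0.12 in 3ABY721, none of them called; without WT grown replicate I, the WT difference was -1.24 and passed (adjusted p = 0.00987).

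**Figure D4:**
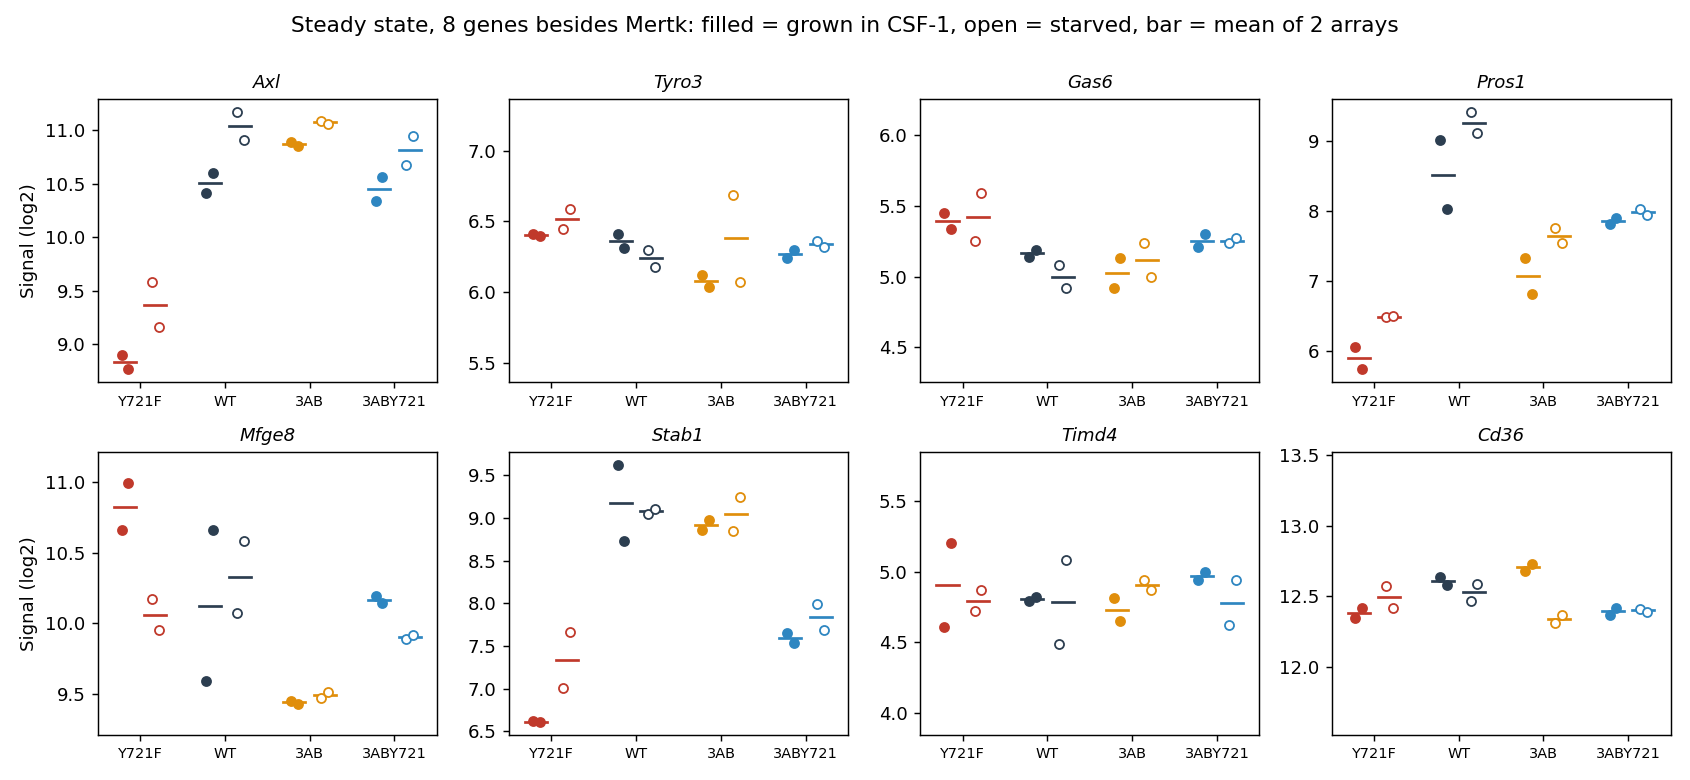
Signals (log2) of the 8 genes other than Mertk in the 4 lines, grown in CSF-1 (filled) or starved (open), with a bar for the mean of 2 arrays; each panel has its own range. Axl, Pros1 and Stab1 have their lowest means in Y721F, and the Pros1 means of WT stand above those of the other 3 lines.

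Mfge8, the bridge to αv integrins, was highest in Y721F grown in CSF-1 and lowest in 3AB. It read 10.66 and 10.99 in Y721F grown and 9.45 and 9.43 in 3AB grown, against 9.59 and 10.66 in WT grown and 10.19 and 10.14 in 3ABY721 grown. The 2 WT arrays spanned more than the other groups did. 3AB minus Y721F was -1.38 grown (SE 0.26, 2.61-fold lower, limma adjusted p = 0.00261), the 1 call of a member in the direction opposite to the other 4 in that comparison (7.87% of all genes called, 4.65% as higher and 3.21% as lower). Starved, that difference was -0.57 (adjusted p = 0.185).

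The other planned comparisons did not call Mfge8. Y721F minus WT was 0.70 grown (95% interval 0.15 to 1.25, adjusted p = 0.102), and 1.23 without WT grown replicate II, which passed (adjusted p = 0.00152). 3AB minus 3ABY721 was -0.73 grown (adjusted p = 0.264), and grown minus starved in Y721F 0.77 (adjusted p = 0.0946, and 0.0493 with all 32 arrays in 1 fit). Grown minus starved in WT was -0.20, and it became 0.34 without WT grown replicate I and -0.73 without WT grown replicate II, which passed (adjusted p = 0.0337). With CSF-1 in the time course, Mfge8 differed from 0 min by between -0.19 and 0.02.

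Stab1 encodes stabilin-1, a scavenger and phosphatidylserine receptor of alternatively activated macrophages, and like Mertk it was higher in WT and 3AB than in Y721F and 3ABY721. Grown, it read 6.62 and 6.61 in Y721F, against 9.62 and 8.73 in WT, and 8.86 and 8.98 in 3AB, against 7.65 and 7.54 in 3ABY721. Starved, it read 7.01 and 7.66 in Y721F, against 9.05 and 9.11 in WT, and 8.85 and 9.24 in 3AB, against 7.99 and 7.69 in 3ABY721. WT and 3AB shared one range, and Y721F and 3ABY721 lay below it.

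Y721F minus WT was -2.56 for Stab1 grown (SE 0.25, 5.90-fold lower, limma adjusted p = 1.36e-05) and -1.75 starved (3.35-fold, adjusted p = 0.000398). 3AB minus 3ABY721 was 1.32 grown (2.51-fold higher, adjusted p = 0.0157) and 1.21 starved (2.31-fold, adjusted p = 0.045). Both calls of this second pair were lost without any 1 of their 4 arrays (adjusted p 0.11 to 0.172 grown and 0.106 to 0.494 starved) and with all 32 arrays in 1 fit (0.151 and 0.326). The starved one was lost with quantile normalization too (adjusted p = 0.0536).

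Among lines of like Tyr-721, 3AB minus Y721F was 2.31 for Stab1 grown (4.94-fold higher, adjusted p = 2.2e-05) and 1.71 starved (adjusted p = 0.000485). 3ABY721 minus WT was -1.58 grown (adjusted p = 0.0167) and -1.24 starved (adjusted p = 0.0281). Both were lost with all 32 arrays in 1 fit (0.094 and 0.106), the starved one without any 1 of its 4 arrays (adjusted p 0.0934 to 0.222), and the grown one without WT replicate I (-1.14), 3ABY721 replicate I (-1.64) or 3ABY721 replicate II (-1.52). The counts of members called were 2 of 9 lower for 3ABY721 minus WT grown (0.256% of all genes, 0.166% as lower), 3 of 9 lower starved (1.81%, 1.48%), and 4 of 9 higher for 3AB minus Y721F starved (7.61%, 5.08%). In comparisons added after the values were seen, 3AB minus WT was -0.26 grown and -0.04 starved for Stab1, neither called.

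Unlike Mertk, Stab1 was not called for growth in CSF-1 or in the time course. Grown minus starved was -0.72 in Y721F (95% interval -1.26 to -0.18, adjusted p = 0.108), 0.10 in WT, -0.12 in 3AB and -0.24 in 3ABY721. At 180 min, Stab1 read 8.07 and 8.67 in Y721F, against 7.44 and 8.39 at 0 min, and 9.86 and 9.21 in WT, against 9.46 and 8.93 at 0 min. At 0 min Y721F minus WT was -1.28 (SE 0.48, adjusted p = 0.383). The within-line block gave an adjusted p of 7.87e-05, in an error without the gap between replicates.

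Timd4, the phosphatidylserine receptor TIM-4 of resident peritoneal macrophages, was at 4.49 to 5.44 in every array and was not called in any of 24 comparisons (differences -0.37 to 0.31, lowest limma adjusted p 0.543). The 20th percentile of the mean signals of all 35556 probe sets was 4.49.

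Cd36 was not called in any comparison either. It read 12.31 to 12.73 in the 16 steady-state arrays and 11.02 to 12.09 in the 16 arrays of the time course. The experiments thus did not overlap, although both include starved Y721F and WT cells. Of the macrophage markers measured, Spi1 alone did not overlap between the experiments, and neither did the engulfment receptor Lrp1. Spi1 and Lrp1 read lower in the steady-state arrays, where Cd36 read higher. The share of all genes split in this way was not counted. What separated the experiments was not tested. With CSF-1 in WT, Cd36 read 12.09 and 11.39 at 180 min, against 11.57 and 11.02 at 0 min, a difference of 0.45 (SE 0.33, limma adjusted p = 0.682). Grown minus starved in 3AB was 0.36 (adjusted p = 0.222), with 12.68 and 12.73 grown, against 12.31 and 12.37 starved.

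The difference between the 2 pairs of lines, 3AB minus 3ABY721 less Y721F minus WT, was tested as a contrast added after the values were seen. Grown, 4 of 9 members were called above 0 and 1 below (7.99% of all genes, 4.85% above and 3.14% below), and starved 4 of 9 above 0 (10.2%, 6.91% above). For Mertk this contrast was 4.19 grown and 3.18 starved (limma adjusted p = 1.16e-07 and 2.03e-06). For Stab1 it was 3.88 and 2.95 (adjusted p = 1.15e-05 and 0.000159), for Axl 2.09 and 1.93 (adjusted p = 5.15e-05 and 0.000144) and for Pros1 1.84 and 2.44 (adjusted p = 0.00513 and 0.000719). The grown Pros1 call was lost with all 32 arrays in 1 fit (adjusted p = 0.0525). Mfge8 had -1.42 grown (adjusted p = 0.0265), a call lost without any 1 of 6 of its 8 arrays, all but WT replicate II and Y721F replicate I (adjusted p 0.0685 to 0.0989, and -0.89 without WT replicate I), and -0.15 starved.

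Over the 16 group means, which share arrays, lines and scaling, Pros1 and Stab1 correlated at r = 0.81, Axl and Mertk at 0.71, Mertk and Stab1 at 0.66, and Mertk and Pros1 at 0.64. These means pool the 2 experiments, so an offset between the experiments enters each r. The genes whose 16 group means followed Mertk best were Frmd4b (r = 0.95), Dna2 (0.94) and Als2cl (0.94), and those for Axl were Gbp9 (0.90), Slfn9 (0.88) and Cd28 (0.88). For Pros1 they were Ifi214 (0.98), Lsp1 (0.94) and Bst1 (0.93), and for Stab1 Nt5dc2 (0.95), Hal (0.93) and Tbc1d9 (0.91). None is given for Cd36, whose group means separate the experiments without overlap. Tyro3, Gas6, Mfge8 and Timd4 varied too little between groups (SD 0.14 to 0.33, under the 0.40 set for this ranking).

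Other engulfment receptors changed one at a time in the time course and with growth in some lines. Of 20 measured, 1 rose with CSF-1 in WT at each time (0.155%, 0.547% and 1.38% of all genes rose): Cd14, the lipopolysaccharide co-receptor that can also tether dying cells, by 1.15 at 20 min, 1.21 at 60 min and 1.27 at 180 min (limma adjusted p = 0.0431, 0.0141 and 0.0134). In Y721F 1 of 20 rose at 180 min (0.171% of all genes rose), Megf10, an engulfment receptor of glia, by 1.64 (adjusted p = 0.0339). Grown against starved, 2 of 20 were higher and 1 lower in Y721F (4.94% of all genes called), with Megf10 at 1.58, Cd300lf, a lipid-binding receptor, at 1.17 and Itgb5, the integrin β5 chain, at -1.10 (adjusted p = 0.000627, 0.0065 and 0.0487). In WT 1 was higher and 2 were lower (5.32%), with the integrin chain Itgav at 0.72 and the CD300 family members Cd300a and Cd300lb at -1.11 and -0.66 (adjusted p = 0.026, 0.00243 and 0.0321). In 3AB 0 of 20 were called (0.687%), and in 3ABY721 1 was lower (1.41%), Cd300a at -0.81 (adjusted p = 0.0318). Megf10 also differed between lines: it read 8.32 and 8.26 in Y721F grown, against 5.73 and 6.17 in WT grown, 2.34 higher (adjusted p = 7.14e-06). In Y721F against WT, 1 of 20 was higher and 0 lower grown (7.88% of all genes called), and 2 higher and 2 lower starved (11.1%). In 3AB against 3ABY721 1 of 20 was higher grown (1.18%), Itgb5 by 1.38 (adjusted p = 0.0427), and 0 were called starved (0.617%). The median difference of the 20 was -0.03 for Y721F minus WT grown, against 0.05 over all genes.

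Of 14 other bridges and surface signals, 2 were lower in Y721F than in WT grown (4.94% of all genes lower), the complement chains C1qb and C1qc, which help to opsonise dying cells. Starved, 4 of 14 were lower (7.66% of all genes lower): C1qb, C1qc, Edil3, an integrin-binding bridge (-1.58), and Thbs1, thrombospondin-1 (-0.79). For 3AB against 3ABY721, 2 of 14 were higher grown (0.542% of all genes higher), C1qa and C1qc, and 0 of 14 were called starved (0.617%). C1qb read 6.14 and 5.64 in Y721F grown, against 10.41 and 7.51 in WT grown, a difference of -3.07 (SE 0.69, limma adjusted p = 0.0116). C1qa read 10.16 and 10.27 in 3AB grown, against 6.96 and 6.98 in 3ABY721 grown, a difference of 3.25 (SE 0.60, adjusted p = 0.0136). WT replicate I stood above replicate II in C1qb in every group, as in the Pros1 values of WT. Sirpa, the receptor for the do-not-eat-me signal Cd47, was lower grown than starved in Y721F (difference -0.73, limma adjusted p = 0.00519) and in WT (-0.61, adjusted p = 0.014).

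Of 17 engulfment signalling genes measured of 18, 4 were lower in Y721F than in WT grown (4.94% of all genes lower) and 5 starved (7.66%), and none was higher. They include Trio, a guanine nucleotide exchange factor, at -0.92 grown (limma adjusted p = 0.00036) and Elmo1, the partner of Dock proteins, at -0.81 grown (adjusted p = 0.00578). The median of the 17 was -0.39 grown, against 0.05 for all genes. In 3AB against 3ABY721, Tiam1, a Rac exchange factor, was lower, at -1.74 grown and -1.36 starved (limma adjusted p = 0.000273 and 0.00323), and the other 16 were not called (1.18% and 0.617% of all genes called).

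Of 10 measured nuclear receptor and cargo-handling genes, of 12 listed, 3 were lower grown than starved in Y721F (1.46% of all genes lower) and 4 in WT (3.01%), with 0 of 10 called in 3AB (0.687% of all genes called) and in 3ABY721 (1.41%). In WT they include Abca1 and Abcg1, which export cholesterol, at -2.08 and -1.32 (limma adjusted p = 0.0135 and 0.00131), and Mylip, which marks the LDL receptor for degradation, at -1.64 (adjusted p = 0.00604). In Y721F they include Mylip at -1.21 (adjusted p = 0.0293) and Nr1h3, the LXRα receptor, at -0.96 (adjusted p = 0.047). Nr1h3 read 8.75 and 8.23 in Y721F grown, against 9.74 and 9.17 starved. The list's median was -0.28 in Y721F and -0.58 in WT, and -0.29 in 3AB and -0.43 in 3ABY721, against 0.01 in Y721F, -0.03 in WT, -0.01 in 3AB and 0 in 3ABY721 over all genes. Between lines, 5 of 10 were lower in Y721F than in WT starved (7.66% of all genes lower, list median -0.51), among them Abca1 at -2.03, Rxra, the partner receptor of LXR, at -1.13 and Abcg1 at -0.93 (adjusted p = 0.00692, 0.000168 and 0.00477). Grown, 2 of 10 were lower and 1 higher (7.88% called). In 3AB against 3ABY721, 0 of 10 were called grown (1.18% of all genes called) or starved (0.617%).

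Of 7 genes for shedding of and feedback on TAM receptors, 1 was higher in Y721F than in WT, grown (2.94% of all genes higher) and starved (3.47%). That gene was Twist1, a transcription factor that acts downstream of Axl in macrophages. It read 9.47 and 9.82 in Y721F grown, against 6.34 and 5.88 in WT grown, 3.53 higher (limma adjusted p = 1.21e-08), and 8.31 and 8.30 in Y721F starved, against 6.29 and 6.48 in WT starved. Twist1 rose with growth in Y721F by 1.34 (adjusted p = 0.00041), and this effect exceeded that in WT by 1.61 (adjusted p = 0.0184). Adam10 and Adam17, which encode proteases that shed surface receptors, were lower in Y721F than in WT, 1 in each state. Adam10 was at -0.68 grown and Adam17 at -0.59 starved (adjusted p = 0.0132 and 0.0091, with 4.94% and 7.66% of all genes lower). Socs3, an inhibitor of cytokine signalling, rose in WT at 20 min by 3.06 (adjusted p = 0.012), with 11.42 and 11.09 at 20 min, against 8.17 and 8.22 at 0 min.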

How the data were processed

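The authors deposited log2 signals for 35556 probe sets on 32 arrays (Affymetrix Mouse Gene 1.0 ST, total RNA with an integrity number above 9.5, per the labels and the series' design text). Their range shows the log2 scale; how the arrays were background-corrected, summarized and normalized, and on which build, is not given in the sources used here. Of 23410 probe sets with a gene in the array annotation, the 21789 with a single gene were kept, and a gene's brightest probe set stood for it, which left 19938 genes. Each experiment was fitted on its own (16 arrays, 8 group means) in limma 3.58.1 under R 4.3.3, with lmFit and eBayes, and the fit was tested on simulated data. Genes called have an adjusted p under 0.05 and a fold above 1.5, and precision is limited by having 2 arrays in a group. The members, gene lists, tests and naming rules were chosen with earlier results of these data known. All 9 members are named whatever their values, with up to 3 called genes per list and comparison and, for members whose group means have an SD of at least 0.4, the 3 genes of highest r (left out for Cd36, whose levels separate the experiments). Same-numbered arrays deviated together at different times within WT (r 0.487 to 0.734 over 6 pairs) and within Y721F (0.353 to 0.648), and less so between lines (-0.063 to 0.29). In the steady-state experiment each line has 1 such pair (r 0.042 to 0.28), and different lines gave -0.328 to 0.283. Pairing by number was thus taken as shown only within a line of the time course. A block within each line and a block over all lines were fitted in both experiments as alternatives. The alternatives were quantile normalization, the mean of a gene's probe sets, no dim genes, a trended robust prior, 32 arrays in 1 fit, other thresholds, replicate blocks and leaving out each array.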

Additional observations from a re-analysis of the deposited data

Results flagged for a closer look

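The difference between a line without Tyr-721 and its partner with it was not the same in the 2 pairs of lines, by limma's test of 3AB minus 3ABY721 less Y721F minus WT. Grown in CSF-1, this difference was 4.19 for Mertk, 2.09 for Axl, 1.84 for Pros1, 3.88 for Stab1 and -1.42 for Mfge8. Starved, it was 3.18 for Mertk, 1.93 for Axl, 2.44 for Pros1 and 2.95 for Stab1. The grown Pros1 call was lost with all 32 arrays in 1 fit, and the Mfge8 call in most fits without 1 array. Mertk and Stab1 were called in both pairs, lower in Y721F than in WT and higher in 3AB than in 3ABY721, whereas Axl and Pros1 were called in the first pair alone. For Axl, the Y721F-minus-WT difference of starved cells was -1.66 further down in the steady-state experiment than at 0 min of the time course. That call was lost with quantile normalization (-1.49), with a trended robust prior and in most fits without 1 array (-1.97 to -1.35).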

How the results depend on the processing

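Over 24 comparisons, 32 of 216 member results were called; 21 of these kept their call in all 9 alternative settings and every fit without 1 array, 25 kept it in the 9 settings, and 0 changed sign. Each of the 24 comparisons called between 0% and 11.1% of all genes. No share of all genes was pooled over comparisons, so the totals in this paragraph count members only. Calls of members over the WT time course numbered 1, and 2 with the replicate block within each line or with the series' cutoff of an unadjusted p under 0.05. For Y721F against WT at 0 min they numbered 0, then 1 with all 32 arrays fitted together and 3 with the series' cutoff. There they numbered 3 with the replicate block within each line (3.99% of all genes) and 1 with the block over all lines (2.01%). For growth the count was 4, and 8 with the series' cutoff. For lines of like Tyr-721 it was 14, and 9 with all 32 arrays fitted together. For the difference of growth effects it was 0, and 3 with the series' cutoff. Leaving out 1 array gave 0 to 2 calls for the WT time course, 0 to 0 for Y721F, for the difference of responses and for Y721F against WT at 0 min, 3 to 7 for growth, 10 to 15 for the pairs that differ in Tyr-721 (12 in all arrays), 12 to 15 for lines of like Tyr-721 and 0 to 1 for the difference of growth effects. Mfge8 in WT grown minus starved (-0.20) turned to 0.06 without WT starved replicate II and to 0.34 without WT grown replicate I, and lay at -0.73 without WT grown replicate II. In the steady-state arrays 1 of the 4 same-line correlations was under 0.1, and pairing was not taken as shown. There the within-line replicate block called 3 further member results of the planned comparisons. Pros1 was called in WT grown minus starved (limma adjusted p = 0.0313, and 0.0467 with the block over all lines). Mfge8 was called in Y721F minus WT grown (0.0263) and in Y721F grown minus starved (0.0276). This block called 6.69%, 8.92% and 5.69% of all genes in these comparisons, in that order. In an added comparison, 3AB minus WT starved, it also called Mfge8 (-0.835, adjusted p = 0.0303, with 2.91% of all genes called). With 2 arrays per group, a difference that misses the threshold is not shown to be absent.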
